A study of Homo sapiens with 83 samples.

Results

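Transcripts of the glucocorticoid receptor (NR3C1) and of 9 genes that it is known to induce were followed through a circadian time course in 2 neuroblastoma cell lines. The genes were taken by name from the gene symbols of the expression table: NR3C1, FKBP5, TSC22D3, DUSP1, KLF9, SGK1, ZBTB16, ERRFI1, CEBPD and MT2A. All 10 were found once each among the 60237 genes of the table. Expression is given in TPM, a share of all transcripts that is corrected for transcript length, so that levels of different genes can be set side by side.

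The series holds 83 libraries of polyadenylated RNA from SHEP and SKNAS cells, both of which constantly produce N-MYC-ER, in which the estrogen receptor's hormone-binding domain keeps N-MYC inactive until 4-hydroxytamoxifen (4OHT) binds. MYC-ON stands for 4OHT and MYC-OFF for its ethanol vehicle, and every culture of both conditions then received dexamethasone to entrain the clock. Circadian time (CT) counts hours from dexamethasone, and a library was made every 4 h from CT24 to CT76. SHEP had 28 MYC-OFF and 28 MYC-ON libraries, in 2 replicate series of 14 time points per condition, and SKNAS had 14 MYC-OFF and 13 MYC-ON libraries in a single series per condition, the MYC-ON series ending at CT72. There were no cultures without dexamethasone and none with 4OHT but without the fusion, so an effect of N-MYC-ER and one of 4OHT itself cannot be told apart here. The p-values below measure the spread between time points and series, which share a culture experiment.

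The glucocorticoid receptor sits in the cytoplasm on HSP90 chaperones until a steroid such as dexamethasone binds it, after which it enters the nucleus, binds DNA and raises or lowers transcription of target genes. Some of its best known induced targets restrain the signal itself or inflammation: FKBP5 is an HSP90 cochaperone that lowers the receptor's affinity for hormone, TSC22D3 encodes GILZ, an inhibitor of AP-1 and NF-kB, and DUSP1 is a phosphatase that switches off MAP kinases. In cultured cells a dexamethasone pulse is widely used to set the clock, and PER1 is a known direct target of the receptor.

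The markers of the cells matched neuroblastoma in part. VIM, a mesenchymal marker, ranged from 601 to 4659 TPM over all 83 libraries. HAND2, an adrenergic marker, lay between 11.2 and 34.8 TPM in SHEP libraries and between 31.8 and 217 TPM in SKNAS libraries. PTPRC (CD45), listed as a marker of blood cells, was at 0.0118 TPM or below in SHEP but had medians of 94.5 TPM in SKNAS MYC-OFF and 17.7 TPM in SKNAS MYC-ON, whereas CD3E and ALB stayed at 0.555 TPM or below in every library. In SKNAS 7 libraries also stood apart as a whole, 3 of 14 MYC-OFF and 4 of 13 MYC-ON, with a median log2(TPM + 1) over expressed genes below 3.3, against 3.93 to 4.17 in SHEP. The libraries labelled CT24 stood apart for the receptor's targets, as described next.

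The promoters of FKBP5, TSC22D3 and KLF9 are shown because these genes were lowest at CT24 in every series. That of DUSP1 is shown because, without CT24, its trend passed as a fall in SHEP MYC-OFF and as a rise in MYC-ON. RefSeq windows of 300 bases around a transcription start, in build GRCh38.p14, were matched by symbol for 8 of the 10 genes, with 20 starts in all (ZBTB16 and CEBPD had no entry). Capitals mark the palindromic E-box CACGTG, the textbook site of MYC and of CLOCK and ARNTL, the receptor's single-arm site AGAACA (or TGTTCT on the other strand), and the looser core ACA, any 3 bases, TGT, which shares the letters ACA with it. The upper FKBP5 start lies in chr6:35728534-35728833 and the lower one in chr6:35688866-35689165. The TSC22D3 start shown, one of several, lies in chrX:107775939-107776238, the DUSP1 start in chr5:172771146-172771445 and the KLF9 start in chr9:70414608-70414907. All are on the minus strand.
FKBP5, upper start: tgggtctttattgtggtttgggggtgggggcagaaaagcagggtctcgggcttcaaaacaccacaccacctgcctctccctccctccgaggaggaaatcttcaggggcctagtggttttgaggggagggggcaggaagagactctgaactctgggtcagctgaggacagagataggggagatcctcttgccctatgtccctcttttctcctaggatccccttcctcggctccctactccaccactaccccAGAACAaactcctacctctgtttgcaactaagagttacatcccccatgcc
FKBP5, lower start: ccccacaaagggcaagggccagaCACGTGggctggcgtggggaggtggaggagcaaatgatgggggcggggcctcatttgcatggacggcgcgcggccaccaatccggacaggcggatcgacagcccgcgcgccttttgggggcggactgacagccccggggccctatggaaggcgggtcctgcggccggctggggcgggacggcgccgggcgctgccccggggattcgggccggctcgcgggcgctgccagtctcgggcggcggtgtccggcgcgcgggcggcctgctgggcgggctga
TSC22D3: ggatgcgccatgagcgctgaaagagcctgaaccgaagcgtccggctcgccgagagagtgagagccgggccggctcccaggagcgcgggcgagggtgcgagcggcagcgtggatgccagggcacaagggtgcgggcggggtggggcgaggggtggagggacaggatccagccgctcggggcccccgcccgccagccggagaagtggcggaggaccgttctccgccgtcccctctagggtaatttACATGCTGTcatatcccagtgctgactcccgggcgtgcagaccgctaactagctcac
DUSP1: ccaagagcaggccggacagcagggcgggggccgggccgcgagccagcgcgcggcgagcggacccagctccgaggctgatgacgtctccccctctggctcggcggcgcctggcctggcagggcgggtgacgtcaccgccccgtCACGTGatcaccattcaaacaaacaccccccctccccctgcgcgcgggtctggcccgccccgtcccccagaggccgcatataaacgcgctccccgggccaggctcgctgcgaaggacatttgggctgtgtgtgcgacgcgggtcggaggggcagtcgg
KLF9: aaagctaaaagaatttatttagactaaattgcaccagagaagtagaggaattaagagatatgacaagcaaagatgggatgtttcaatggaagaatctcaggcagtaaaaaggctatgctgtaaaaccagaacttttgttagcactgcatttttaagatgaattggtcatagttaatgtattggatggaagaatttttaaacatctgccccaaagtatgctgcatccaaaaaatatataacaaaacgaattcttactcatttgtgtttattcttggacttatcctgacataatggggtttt
The upper FKBP5 window held AGAACA at the start itself, and the lower one held an E-box 227 bases before its start. The TSC22D3 window shown held the looser core 7 bases before the start, DUSP1 held an E-box 108 bases before the start, and none of these letters occurred in the KLF9 window. An overlapping TSC22D3 window, chrX:107775738-107776037, held the same core. Its windows at chrX:107717013-107717312 and chrX:107716459-107716758 held none of these letters. Of all 35116 promoter windows, 14.8% held AGAACA, 7.26% the E-box and 5.37% the looser core, and 1 held 2 copies of AGAACA facing each other with 3 bases between. Among the 8 genes with an entry AGAACA was in windows of 2, the E-box in windows of 2 and the looser core in windows of 1. Each of the 3 was in 2 of the 20 windows of these genes. These are matches of letters and not measured binding sites.

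The most marked feature of the time course was a low level of the induced targets in the libraries labelled CT24, followed by a rise by CT28. FKBP5, TSC22D3 and KLF9 had their lowest value of the whole series at CT24 in all 6 series, that is, in both lines and in both conditions. Only 7 of the 14870 expressed genes (mean TPM at or above 1) did so, which is 0.0471%, and the other 4 were BIRC3, C3, IP6K3 and MAOA. The low CT24 values were noticed first, and the comparison of CT28 with CT24 was added after that. In SKNAS MYC-ON the CT24 library was itself among those of low median, at 3.09 against 3.62 at CT28.

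For TSC22D3 the SHEP MYC-OFF series stood at 7.10 and 6.56 TPM at CT24 and at 55.7 and 51.3 TPM at CT28. In SHEP MYC-ON the 2 series went from 13.0 and 12.3 TPM to 93.2 and 106 TPM. SKNAS went from 1.90 to 11.1 TPM in MYC-OFF and from 5.36 to 28.1 TPM in MYC-ON. No CT24 value of TSC22D3 reached the lowest later value of its own series, and from CT28 on the medians of the 6 series lay 4.25 to 7.48 times above CT24.

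FKBP5 stood at 8.67 and 10.7 TPM at CT24 in the SHEP MYC-OFF series and at 45.5 and 47.6 TPM at CT28. In SHEP MYC-ON its CT24 values were higher, 20.7 and 22.1 TPM, and its CT28 values were 46.0 and 48.8 TPM. In SKNAS it moved from 8.69 to 66.9 TPM in MYC-OFF and from 7.56 to 33.2 TPM in MYC-ON. The SHEP conditions were thus apart at CT24 and together at CT28. KLF9, a Kruppel-like transcription factor, moved from 6.81 and 7.26 TPM to 13.9 and 16.2 TPM in SHEP MYC-OFF and from 5.24 and 6.28 TPM to 11.9 and 12.6 TPM in SHEP MYC-ON. In SKNAS it moved from 1.00 to 8.18 TPM in MYC-OFF and from 0.339 to 3.98 TPM in MYC-ON.

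**Figure D1:**
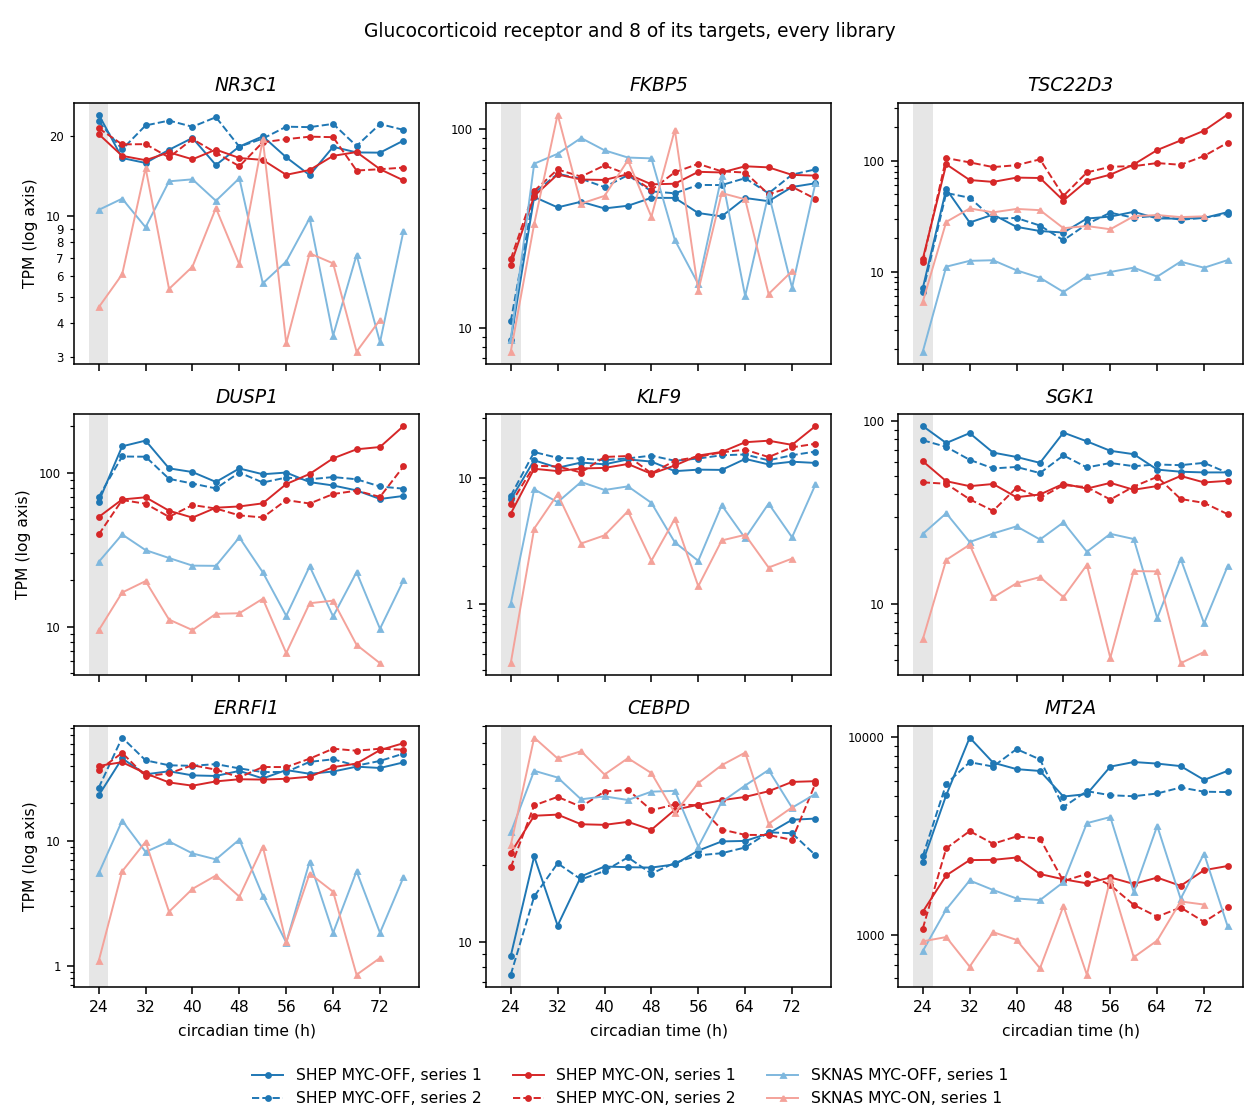
TPM (log axis) of NR3C1 and 8 target genes against circadian time in hours, 1 point per library and 1 line per series (blue MYC-OFF, red MYC-ON, circles SHEP with series 2 dashed, pale triangles SKNAS), with CT24 shaded. FKBP5, TSC22D3 and KLF9 are lowest at CT24 in all 6 series, and in SHEP MYC-ON TSC22D3 and DUSP1 climb to 262 and 201 TPM at CT76 of series 1.

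The other targets shared the direction with less regularity. CEBPD, a C/EBP transcription factor, moved from 8.81 and 7.44 TPM to 21.6 and 15.1 TPM in SHEP MYC-OFF, from 22.3 and 19.6 TPM to 31.2 and 34.3 TPM in SHEP MYC-ON, and from 26.9 to 46.8 and 23.9 to 63.2 TPM in SKNAS MYC-OFF and MYC-ON. Its CT24 value was the lowest of the series in 5 of 6. MT2A, a metal-binding metallothionein, was also lowest at CT24 in 5 of 6 series, at 2331 and 2491 TPM in SHEP MYC-OFF against 5070 and 5782 TPM at CT28. DUSP1 rose between the 2 times in 6 of 6 series but was lowest at CT24 in 3 of them. ERRFI1, an inhibitor of EGFR family receptors, went from 23.2 and 26.7 TPM to 45.8 and 67.3 TPM in SHEP MYC-OFF but only from 39.9 and 36.9 TPM to 42.8 and 50.8 TPM in SHEP MYC-ON.

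The receptor and SGK1 went the other way in SHEP. NR3C1 stood at 24.0 and 22.6 TPM at CT24 in MYC-OFF and at 16.5 and 17.8 TPM at CT28, and in MYC-ON it stood at 20.3 and 21.3 TPM and then at 16.8 and 18.5 TPM. SGK1, a kinase that regulates ion transport, stood at 94.2 and 78.8 TPM and then at 76.1 and 72.5 TPM in SHEP MYC-OFF. In SKNAS both were higher at CT28 than at CT24, SGK1 at 31.5 against 24.3 TPM in MYC-OFF and 17.5 against 6.45 TPM in MYC-ON. The CT24 library of SKNAS MYC-ON had a low median log2(TPM + 1), 3.09 against 3.62 at CT28. Later MYC-ON libraries of low median held 4.77 to 5.50 TPM of SGK1 and 3.14 to 4.12 TPM of NR3C1. Time and library therefore cannot be told apart for either gene in that series. ZBTB16, a zinc finger repressor strongly induced by glucocorticoids in many cells, was at 0 at CT24 in all 6 series.

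Across the 6 pairs of libraries, 5 of the 9 genes tested were higher at CT28 than at CT24 and none was lower (limma on log2(TPM + 1) with series as a block, an adjusted p by Benjamini-Hochberg not above 0.05 and a difference not below 0.15). Over all 14817 genes tested 0.162% were higher and 0.0135% lower, 24 and 2 genes. TSC22D3 had the largest difference of the 26 genes that passed, 2.60 (SE 0.14, adjusted p 2.93e-04), followed among the targets by FKBP5 at 1.89 (SE 0.22, adjusted p 0.0171) and KLF9 at 1.34 (SE 0.19, adjusted p 0.0467). CEBPD at 0.92 (SE 0.12, adjusted p 0.0386) and DUSP1 at 0.75 (SE 0.11, adjusted p 0.0467) also passed. After rescaling of the libraries DUSP1 at 0.67 did not pass (adjusted p 0.102), nor did it without either SHEP series. With a pseudocount of 0.1 DUSP1 (adjusted p 0.0635), KLF9 (adjusted p 0.182) and CEBPD (adjusted p 0.0534) did not pass. With no filter on low values TSC22D3 was the only member that passed. FKBP5 (adjusted p 0.185), KLF9 (adjusted p 0.281), CEBPD (adjusted p 0.229) and DUSP1 (adjusted p 0.281) then did not. ERRFI1 at 0.96 (adjusted p 0.163), MT2A at 0.84 (adjusted p 0.112), SGK1 at 0.14 (adjusted p 0.820) and NR3C1 at -0.14 (adjusted p 0.729) did not pass. The call rests on few libraries: without series 1 of SHEP no member and no gene passed, and without series 2 only TSC22D3 passed among the members, while every member kept its sign in both cases.

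**Figure D2:**
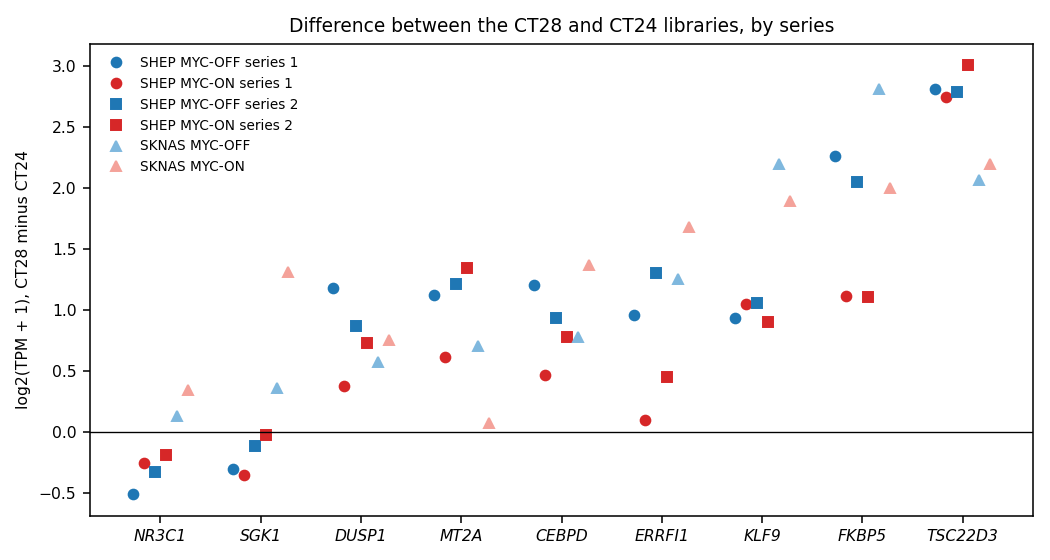
Difference in log2(TPM + 1) between the CT28 and the CT24 library for the receptor and 8 targets, 1 point per series (blue MYC-OFF, red MYC-ON, circles and squares SHEP series 1 and 2, triangles SKNAS), with a line at 0. All 6 points lie above 0 for TSC22D3, FKBP5, KLF9, CEBPD, DUSP1, ERRFI1 and MT2A, while the 4 SHEP points of NR3C1 and of SGK1 lie below it.

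In the 4 SHEP series alone, 6 of 9 members were higher (0.706% of 14310 genes were) and none lower (0.748% were). Of genes that the receptor is known to repress, none of 11 passed over all 6 series, where all 11 were below 0 with a median of -0.61. In the SHEP series, of 10 tested, 7 were lower and none higher, with a median of -0.89, against a median of -0.02 over all genes. Among them were the cytokines IL1B at -2.09 (SE 0.12, adjusted p 6.02e-04), IL6 at -1.85 (SE 0.09, adjusted p 3.77e-04) and CXCL8 at -1.59 (SE 0.12, adjusted p 0.00161). With CT28 to CT40 set against CT24 in all series, 3 of 13 repressed targets were lower (0.444% of 14862 genes were) and 4 were above 0. In that comparison 13 of 31 other induced targets were higher (0.774% of all genes were). Of these other induced targets 2 of 30 were higher over all 6 series, and in the SHEP series 8 of 28 were higher and none lower, with a median of 0.40. ANGPTL4, a lipase inhibitor, at 2.35 (SE 0.16, adjusted p 0.00118) and PER1, a clock repressor, at 2.22 (SE 0.09, adjusted p 2.86e-04) had the largest differences of these. None of 20 receptor chaperones and coregulators passed in either direction, and their median was -0.04.

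**Figure D3:**
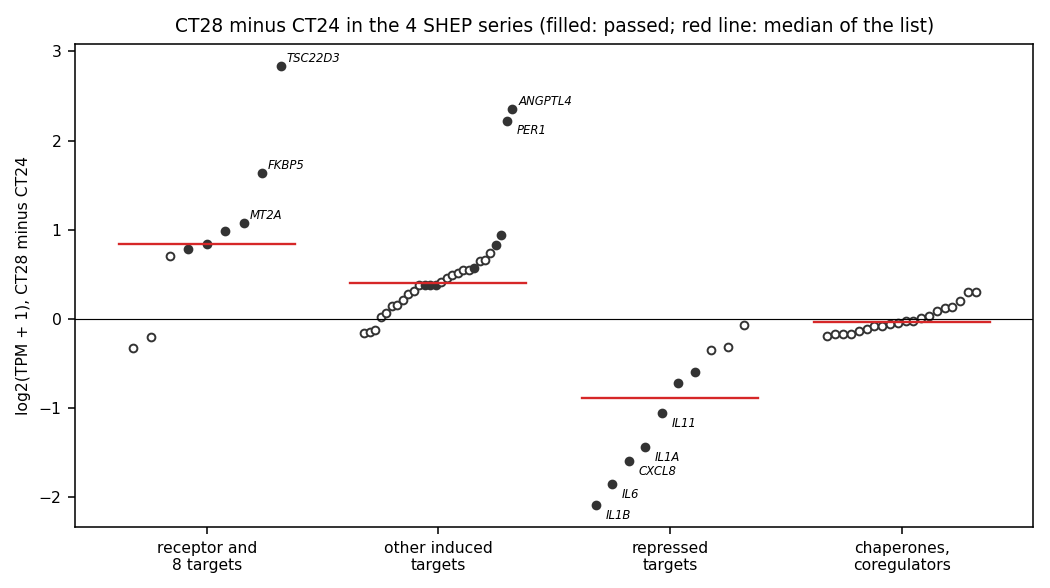
Difference in log2(TPM + 1) between CT28 and CT24 in the 4 SHEP series, 1 point per gene, for the 9 tested members, 28 other induced targets, 10 repressed targets and 20 chaperones and coregulators (filled points passed the limma test, red lines are list medians). The medians are 0.84, 0.40, -0.89 and -0.04.

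The step from CT24 to CT28 also differed from the other steps of 4 h over all genes. Between CT24 and CT28, 17 genes rose and 1 fell by at least 0.5 in log2(TPM + 1) in all 6 series, 3 of them members, while at each of the 11 later steps up to CT72 at most 2 genes rose and at most 2 fell, none of them a member. In the 4 SHEP series 49 genes rose and 40 fell at the first step, against at most 12 and 8 at any later one. Why the CT24 libraries stand apart was not tested. Times are those of the labels and were not checked independently, so the CT24 values and the step to CT28 hold only as far as the label CT24 does. The trends and correlations below are given with and without these libraries.

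After CT28 TSC22D3 had a second feature, a dip at CT48, seen in the values and not tested. It stood at 22.6 and 19.2 TPM at CT48 in SHEP MYC-OFF, at 43.8 and 48.3 TPM in SHEP MYC-ON, at 6.56 TPM in SKNAS MYC-OFF and at 24.7 TPM in SKNAS MYC-ON. At CT44 the same series stood at 23.3, 26.1, 70.0, 103, 8.81 and 35.9 TPM. The CT48 library was the lowest from CT28 on in 5 of 6 series, and TSC22D3 was the only one of 14870 genes, 0.00672%, for which this held. Both CT48 and the cut of 5 series were taken from the values of TSC22D3 itself, and no other time was counted. The share is therefore a description and no test of the dip.

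The levels at CT28 and later differed widely between the genes, with MT2A first and ZBTB16 last in all 4 groups and other places that changed between the lines. MT2A was by far the most abundant, with a mean and SD over the 26 SHEP MYC-OFF libraries of 6365 ± 1334 TPM, and ZBTB16 the least, with 0.0613 ± 0.112 TPM. Between them in SHEP MYC-OFF came DUSP1 at 96.9 ± 22.4 TPM, SGK1 at 62.6 ± 10.1 TPM, FKBP5 at 48.7 ± 7.17 TPM, ERRFI1 at 40.1 ± 7.13 TPM, TSC22D3 at 31.9 ± 8.11 TPM, CEBPD at 21.7 ± 4.29 TPM, NR3C1 at 19.1 ± 2.48 TPM and KLF9 at 13.9 TPM, with a range of 11.4 to 16.3 TPM. From SGK1 down to NR3C1 each gene's mean ± SD overlapped that of the next, so those neighbours in the order were not apart beyond their spread. In SHEP MYC-ON TSC22D3 moved up to second place at 100 ± 45.7 TPM, overlapping DUSP1 at 80.3 ± 36.4 TPM. In SKNAS FKBP5 was second in both conditions, at 52.8 ± 26.2 TPM (n = 13) in MYC-OFF and 48.8 ± 32.2 TPM (n = 12) in MYC-ON.

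ZBTB16 stayed near 0 throughout and was below the mean TPM of 1 that the tests required, so it was not tested. It was listed at 0 in 11 of 28 SHEP MYC-OFF, 8 of 28 SHEP MYC-ON, 2 of 14 SKNAS MYC-OFF and 1 of 13 SKNAS MYC-ON libraries. Its highest values came late, 0.717 TPM at CT76 in SHEP MYC-ON and 2.60 TPM at CT76 in SKNAS MYC-OFF. The depth of each library is not recoverable from TPM, so no detection limit can be set for it.

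MYC-ON and MYC-OFF were compared in SHEP over 56 libraries with time as a factor. Of the 9 members tested 3 were higher and 4 lower in MYC-ON, and over all 14362 genes 33% were higher and 38.9% lower, so the members' share was near the background. TSC22D3 had a lowest, median and highest value of 6.56, 30.3 and 55.7 TPM in MYC-OFF and of 12.3, 90.4 and 262 TPM in MYC-ON. It was higher in MYC-ON in 28 of 28 pairs of libraries from the same series and time, by 1.49 in log2(TPM + 1) (SE 0.09, adjusted p 5.75e-20). The ranges of the groups overlapped, also from CT28 on (19.2 to 55.7 TPM against 43.8 to 262 TPM), while no pair went the other way.

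MT2A was the member with the largest decrease. It ranged from 2331 to 9908 TPM with a median of 5918 TPM in MYC-OFF, and from 1073 to 3336 TPM with a median of 1943 TPM in MYC-ON. The difference was -1.59 (SE 0.07, adjusted p 4.54e-24), with MYC-ON lower in 28 of 28 pairs, and from CT28 on the ranges did not overlap. Its relative MT1X, another metallothionein, was in contrast higher by 0.24 in SHEP (SE 0.08, adjusted p 0.0108) and by 1.17 in SKNAS (SE 0.17, adjusted p 5.27e-05). The genes of this family are near copies of each other, so reads may be divided among them with error.

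SGK1 was likewise lower in 28 of 28 pairs, with a range of 52.1 to 94.2 TPM and a median of 59.3 TPM in MYC-OFF against 31.1 to 60.5 TPM and a median of 44.1 TPM in MYC-ON, a difference of -0.56 (SE 0.05, adjusted p 2.78e-14). CEBPD was higher in 26 of 28 pairs, at a median of 33.4 TPM against 20.9 TPM, a difference of 0.66 (SE 0.07, adjusted p 1.38e-12). FKBP5, at a median of 58.5 TPM in MYC-ON against 47.4 TPM, was higher in 25 of 28 pairs, by 0.29 (SE 0.06, adjusted p 2.90e-05). Of these 5 targets 3 were thus higher and 2 lower in MYC-ON, and from CT28 on the ranges of MT2A and SGK1 did not overlap between the conditions while those of TSC22D3, CEBPD and FKBP5 did.

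Of the remaining members DUSP1 and NR3C1 were lower in SHEP MYC-ON. DUSP1 was lower by 0.36 on the log2 scale (-0.36, SE 0.11, adjusted p 0.00285) and in 22 of 28 pairs, with medians of 64.9 TPM in MYC-ON and 90.7 TPM in MYC-OFF. NR3C1 itself was lower in 22 of 28 pairs, at a median of 16.8 TPM in MYC-ON against 19.3 TPM in MYC-OFF (-0.17, SE 0.05, adjusted p 7.80e-04). KLF9 at 0.05 (SE 0.05, adjusted p 0.406) and ERRFI1 at 0.04 (SE 0.06, adjusted p 0.546) did not pass, and their ranges overlapped. With the mean of each series as the only replicates, 4 members passed, TSC22D3, MT2A, SGK1 and CEBPD. In that fit 3479 of all 14362 genes were higher and 4148 lower. Within the series FKBP5 differed by 0.45 in series 1 and 0.13 in series 2, the latter not passing, and DUSP1 by -0.18 in series 1, not passing, and -0.53 in series 2. NR3C1 differed by -0.11 in series 1, not passing, and -0.23 in series 2, and after rescaling of the libraries its difference of -0.13 was below the 0.15 required.

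**Figure D4:**
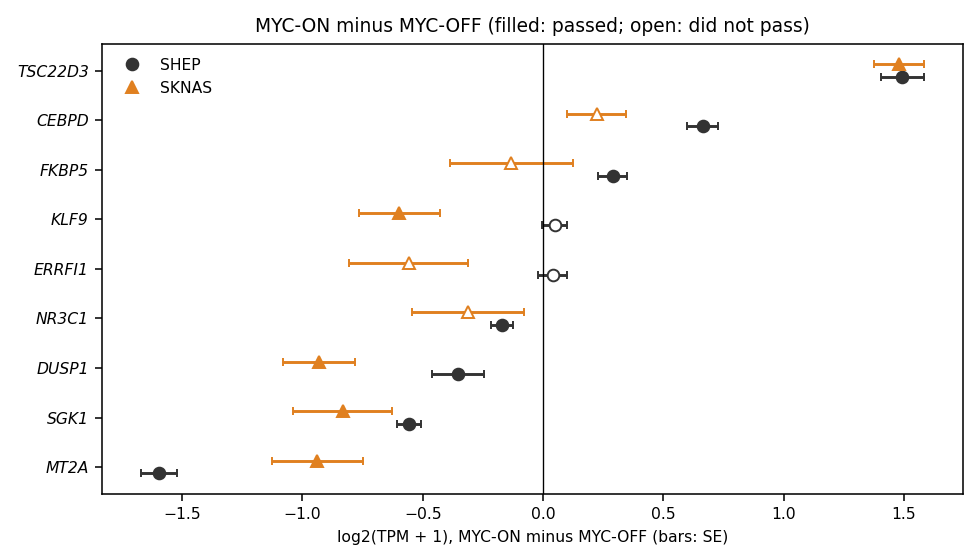
Difference in log2(TPM + 1) between MYC-ON and MYC-OFF in SHEP (circles) and SKNAS (triangles), with bars of 1 SE from the limma fits and open symbols where the test was not passed. TSC22D3 lies at 1.49 and 1.48, MT2A at -1.59 and -0.94.

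In SKNAS, 1 member was higher and 4 were lower in MYC-ON, against 13.9% and 34.2% of 13886 genes. TSC22D3 was again higher, in 13 of 13 pairs and by 1.48 (SE 0.10, adjusted p 3.30e-08). Its MYC-OFF libraries had a lowest, median and highest value of 1.90, 10.6 and 12.7 TPM and its MYC-ON libraries of 5.36, 31.6 and 37.2 TPM, and from CT28 on the ranges did not overlap. MT2A (-0.94, SE 0.19, adjusted p 7.99e-04), DUSP1 (-0.93, SE 0.15, adjusted p 1.18e-04) and SGK1 (-0.83, SE 0.21, adjusted p 0.00389) were each lower in 12 of 13 pairs. KLF9 was lower in 10 of 13 pairs by 0.60 on the log2 scale (-0.60, SE 0.17, adjusted p 0.00915).

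SKNAS values need to be read with the library medians. Over all genes the median difference was -0.29 as deposited and 0.01 after rescaling the libraries by the median of ratios, and of the called genes 28.8% were higher as deposited and 51.6% after rescaling. After CT24 the 3 MYC-OFF libraries with low medians had 14.4 to 16.6 TPM of FKBP5 and the other 10 had 27.6 to 90.1 TPM. ERRFI1 stood at 1.54 to 1.85 TPM in the former and at 3.65 to 14.6 TPM in the latter. TSC22D3 did not follow this split, at 9.03 to 10.9 TPM and 6.56 to 12.7 TPM, and MT2A was high in the low libraries, at 2565 to 3929 TPM against 1106 to 3659 TPM.

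FKBP5 (-0.13, adjusted p 0.686), NR3C1 (-0.31, adjusted p 0.278), ERRFI1 (-0.56, adjusted p 0.0725) and CEBPD (0.22, adjusted p 0.140) did not pass in SKNAS. After rescaling, FKBP5 was 0.20 higher instead of lower, CEBPD passed at 0.56, and MT2A at -0.59 no longer passed. With the library median as a covariate FKBP5 passed as higher (0.48, adjusted p 0.00446 by limma), while NR3C1 (0.21, adjusted p 0.168) and ERRFI1 (0.04, adjusted p 0.728) were above 0 without passing. TSC22D3, DUSP1, SGK1 and KLF9 kept their direction and passed under both.

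The difference of the MYC effect between the lines was tested directly as SKNAS minus SHEP, and passed for 6 of 9 members against 51.5% of 14870 genes. It was negative for KLF9 (-0.64, SE 0.13), ERRFI1 (-0.60, SE 0.17), DUSP1 (-0.58, SE 0.19), CEBPD (-0.44, SE 0.12) and FKBP5 (-0.42, SE 0.18), and positive for MT2A (0.66, SE 0.16). For TSC22D3 it was -0.01 (SE 0.15, adjusted p 0.940 by limma), for NR3C1 -0.14 (SE 0.16) and for SGK1 -0.28 (SE 0.14), none of which passed. After rescaling 3 members passed (KLF9, ERRFI1 and MT2A), and with the library median as a covariate 3 did (KLF9, CEBPD and NR3C1, the latter then at 0.31). Over all 14870 genes 3751 passed as positive and 3704 as negative after rescaling, and 3687 and 3294 with the covariate.

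Between the lines as such, most members were lower in SKNAS. In MYC-OFF 1 member was higher and 7 were lower, against 32.1% and 46.4% of 14926 genes, and in MYC-ON 1 was higher and 8 were lower, against 26.1% and 58.3% of 14620 genes. CEBPD was the member that was higher, by 0.85 (SE 0.09) in MYC-OFF and 0.44 (SE 0.09) in MYC-ON. ERRFI1 differed most, at -2.59 (SE 0.15) and -3.14 (SE 0.18), with medians of 38.3 TPM in SHEP and 6.29 TPM in SKNAS in MYC-OFF. NR3C1 was lower in SKNAS by 1.08 on the log2 scale (-1.08, SE 0.12) in MYC-OFF and by 1.25 (-1.25, SE 0.13) in MYC-ON, at medians of 9.48 and 6.50 TPM. FKBP5 did not pass in MYC-OFF as deposited (-0.10, SE 0.17, adjusted p 0.592 by limma) or with the replicate block (0.05), but it passed as higher in SKNAS with the library median as a covariate (0.22, adjusted p 0.00392) and without the libraries of low median (0.31, adjusted p 0.0108). In MYC-ON FKBP5 was lower as deposited (-0.56), did not pass after rescaling (-0.05) or without the libraries of low median (-0.07), and was higher with the covariate (0.45, adjusted p 2.54e-06 by limma). MT2A at -0.43 no longer passed in MYC-ON after rescaling, which left 6 members lower, against 6421 of 14620 genes.

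Trends over time were then fitted within SHEP MYC-OFF and MYC-ON. Linear trends are given in log2(TPM + 1) per 24 h. With all time points, 2 members rose and 1 fell in SHEP MYC-OFF, against 4.84% and 8.48% of 14264 genes. These were CEBPD at 0.51 (SE 0.07, adjusted p 1.01e-05), FKBP5 at 0.44 (SE 0.14, adjusted p 0.0389) and SGK1 at -0.23 (SE 0.05, adjusted p 0.00222). Without CT24, 1 rose and 2 fell against 3.51% and 5.79%: CEBPD at 0.36 (SE 0.05, adjusted p 4.72e-05), DUSP1 at -0.36 (SE 0.06, adjusted p 1.05e-04) and SGK1 at -0.19 (SE 0.05, adjusted p 0.0295). FKBP5 was then at 0.07 (SE 0.06, adjusted p 0.529), so its trend rested on the CT24 libraries.

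In SHEP MYC-ON 5 members rose and 1 fell, against 19.2% and 35.1% of 14261 genes. TSC22D3 rose by 0.87 per 24 h (SE 0.18, adjusted p 1.68e-04), DUSP1 by 0.57 (SE 0.10, adjusted p 1.22e-05), KLF9 by 0.52 (SE 0.07, adjusted p 1.60e-07), ERRFI1 by 0.25 (SE 0.07, adjusted p 0.00514) and FKBP5 by 0.24 (SE 0.10, adjusted p 0.0328). NR3C1 changed by -0.13 (SE 0.04, adjusted p 0.00971). Without CT24, 4 rose and 1 fell against 18.3% and 32.7%: DUSP1 at 0.56, TSC22D3 at 0.49, KLF9 at 0.39 and ERRFI1 at 0.30, and MT2A at -0.45 (SE 0.09, adjusted p 1.16e-04), while FKBP5 was at 0.01 and NR3C1 at -0.09, neither passing.

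The late rise was larger in series 1 than in series 2. At CT28, CT44 and CT76 TSC22D3 stood at 93.2, 70.0 and 262 TPM in series 1 and at 106, 103 and 146 TPM in series 2. From CT44 to CT76 DUSP1 went from 59.3 to 201 TPM in series 1 and from 58.6 to 110 TPM in series 2, and KLF9 from 13.0 to 26.0 TPM and from 15.0 to 18.8 TPM. All 3 genes were higher at CT76 than at CT44 in both series, and their MYC-OFF levels at CT76 were 34.4 and 33.1 TPM for TSC22D3, 70.7 and 78.8 TPM for DUSP1 and 13.3 and 16.3 TPM for KLF9. Without series 1 the TSC22D3 trend was 0.60 and no longer passed.

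**Figure D5:**
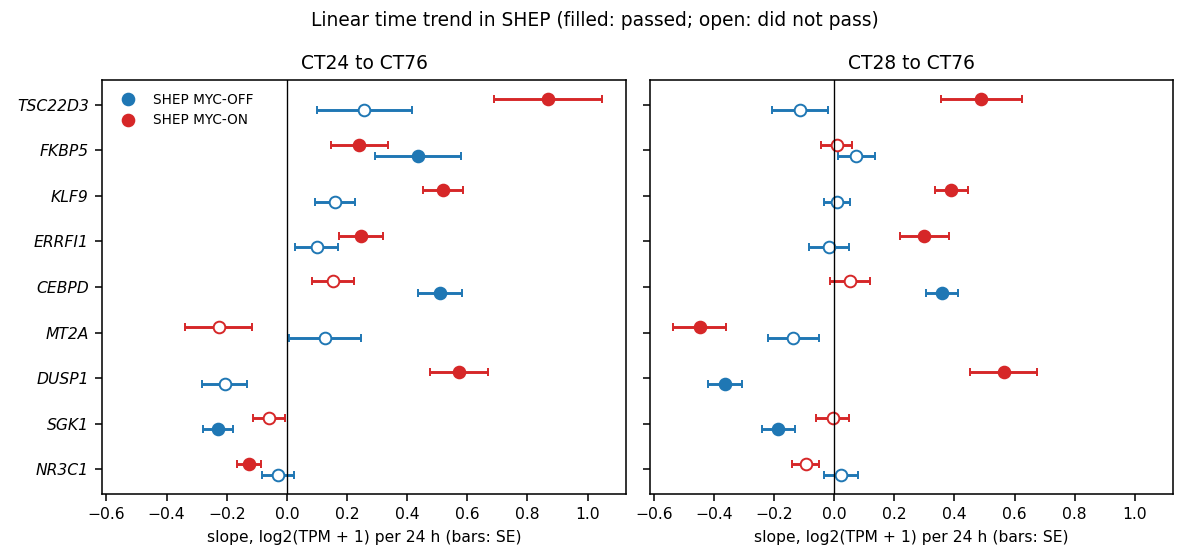
Linear slope in log2(TPM + 1) per 24 h in SHEP MYC-OFF (blue) and MYC-ON (red), with bars of 1 SE from the limma fits, from CT24 to CT76 on the left and from CT28 to CT76 on the right (filled points passed the test). DUSP1 lies at -0.36 in MYC-OFF and 0.56 in MYC-ON on the right, and FKBP5 at 0.07 and 0.01.

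The difference of the slopes, MYC-ON minus MYC-OFF, was tested in SHEP and passed for 4 of 9 members against 39.8% of 14362 genes. It was 0.78 for DUSP1 (SE 0.13, adjusted p 1.51e-06), 0.61 for TSC22D3 (SE 0.25, adjusted p 0.0437), 0.36 for KLF9 (SE 0.10, adjusted p 0.00201) and -0.36 for CEBPD (SE 0.10, adjusted p 0.00382). Without CT24 it passed for 6 against 36.7%: DUSP1 at 0.93, TSC22D3 at 0.60, KLF9 at 0.38, ERRFI1 at 0.32, CEBPD at -0.31 and MT2A at -0.31. DUSP1 was the member whose trend passed as a fall in one condition and as a rise in the other without CT24. With the replicate block the difference for SGK1, 0.17, also passed. Without series 1 the differences for TSC22D3 and KLF9, 0.38 and 0.22, did not pass, and without series 2 that for CEBPD, -0.24, did not.

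No trend of a member passed in SKNAS, where 14 and 13 libraries of a single series were available. In MYC-OFF no gene passed in either direction (0% and 0% of 14119 by limma, 5161 at an unadjusted p below 0.05), in MYC-ON 0.0374% rose and 0.0748% fell of 13365, and the difference of slopes passed for 0.0864% of 13886 genes. With CT24 the steepest member slopes were those of ERRFI1, -0.70 in MYC-OFF (SE 0.25, adjusted p 0.130) and -0.41 in MYC-ON (SE 0.35, adjusted p 0.615). Without CT24 ERRFI1 was at -0.88 and -0.82 and FKBP5 at -0.86 and -0.81, where it had been at -0.30 and -0.19 with CT24, and again no member passed.

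A 24 h rhythm beside the linear trend passed for no member in any group. In SHEP 0.0491% of all genes passed under MYC-OFF and 0.00701% under MYC-ON, and in both SKNAS groups 0% did (limma, with 1098, 921, 58 and 32 genes at an unadjusted p below 0.05).

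Members that varied together in SHEP were described by Pearson's r over the 56 libraries after the mean of each series and condition was taken off. These libraries share the CT24 step and the trends above, and no p is given. TSC22D3 and KLF9 were the closest pair at 0.91, and FKBP5 had 0.75 with both. NR3C1 was negative with every target but SGK1, at -0.50 with TSC22D3 and -0.49 with KLF9, and SGK1 was at -0.63 with CEBPD. Several of these values came from CT24: over the 52 libraries from CT28 on, FKBP5 had 0.14 with TSC22D3 and 0.25 with KLF9, and NR3C1 had -0.19 with TSC22D3 and 0.57 with FKBP5. TSC22D3 still had 0.73 with KLF9 and 0.75 with DUSP1. Of all expressed genes, those closest to FKBP5 were SCNN1A (0.91), PXYLP1 (0.80) and PER1 (0.79), those closest to TSC22D3 were KLF9, TRIP10 (0.88) and TBC1D8 (0.85), and those closest to DUSP1 were CFLAR (0.85), BCL2L1 (0.84) and KLF6 (0.83). For MT2A they were ATP13A2 (0.82), MT1X (0.80) and ANGPTL4 (0.80), for SGK1 BHLHE40 (0.83), HERC4 (0.76) and ATP8B1 (0.74), and for CEBPD ADAMTS7 (0.83), CST3 (0.81) and RFLNA (0.79). Without CT24 the closest gene to FKBP5 was instead TCAF1 (0.72), to TSC22D3 CLIP2 (0.81), to KLF9 KLF3 (0.88) and to DUSP1 CCN1 (0.90). ERRFI1 was closest to RNF19B and NR3C1 to LRRC8B with all libraries, at 0.75 and 0.74.

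Other genes of the pathway were counted from lists of known members. Of 12 tested repressed targets, 10 were lower and 1 was higher in SHEP MYC-ON, against the 38.9% and 33% of all genes, and of 6 tested in SKNAS 3 were lower and none higher. CCL2, a monocyte attractant, was lower in both lines (-2.28, SE 0.13 in SHEP and -1.31, SE 0.10 in SKNAS), IL1B was lower in SHEP (-2.49, SE 0.11) and not tested in SKNAS, and PTGS2, the inducible cyclooxygenase, was lower in SKNAS (-1.75, SE 0.23) and not tested in SHEP. Of 28 other induced targets tested in each line, 9 were higher and 14 lower in SHEP, and 4 higher and 16 lower in SKNAS. In SKNAS 13.9% of all genes were higher and 34.2% lower.

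Among these induced targets, higher in both lines were the thiamine transporter SLC19A2 (1.70 in SHEP and 1.96 in SKNAS), PER1 (0.54 and 0.88) and ARRDC2 (0.43 and 1.03). Lower in both were METTL7A (-1.13 and -2.29), the annexin ANXA1 (-0.94 and -0.56) and ANGPTL4 (-0.80 and -0.86). Opposite between the lines were BIRC3, an inhibitor of apoptosis (0.19 and -1.72), and DDIT4, an inhibitor of mTORC1 (0.40 and -0.52). STOM was higher in SKNAS (2.20) and CRISPLD2 lower in SHEP (-1.98), and neither was tested in the other line.

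Of the 20 chaperones and coregulators, 7 were higher and 8 lower in SHEP MYC-ON, and of 19 tested 8 were higher and 4 lower in SKNAS. Over all genes 33% and 38.9% were higher and lower in SHEP, near the shares of this list, and 13.9% and 34.2% in SKNAS. The chaperone side held FKBP4, the cochaperone that opposes FKBP5 (0.96 and 0.88), HSP90AB1 (0.75 and 0.58) and HSPA4 (0.73 and 0.77), all higher in both lines. The coregulators NCOA2 (-0.72 and -0.94), NCOA3 (-0.66 and -0.85) and NCOR1 (-0.59 and -1.09) were lower in both. DNAJB1 (-0.87) and CREBBP (-0.62) were lower in SHEP and did not pass in SKNAS (0.10 and -0.76). Of the genes that handle hormone, 1 of 4 tested was higher and 2 lower in SHEP, and 1 of 6 higher and 2 lower in SKNAS. H6PD, which feeds the enzyme that regenerates cortisol, was lower in both lines (-0.99 and -1.10), the efflux pump ABCB1 was higher in SHEP (1.59), and HSD11B1, that enzyme itself, was lower in SKNAS (-1.34).

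Of the relatives of the members 5 were higher and 4 lower of 11 tested in SHEP, and 3 higher and 5 lower of 12 in SKNAS, against the same shares of all genes. Of the DUSP1 relatives DUSP5 was higher in both lines (0.23 and 0.64), DUSP4 lower in both (-0.76 and -1.42), and DUSP6 higher in SHEP and lower in SKNAS (0.85 and -1.57). CEBPG was higher in both (0.79 and 0.58), TSC22D2 was lower in both (-0.46 and -0.64), and TSC22D1 did not pass in SHEP (0.01) and was lower in SKNAS (-0.56), as was KLF13 (-1.07), which was not tested in SHEP. The metallothionein MT1G was higher in SKNAS (0.76). Of the lineage markers, HAND2 was higher in SHEP and lower in SKNAS (0.72 and -0.99), FN1 and YAP1 were lower in both (-2.24 and -1.76, -0.26 and -0.91), PRRX1 was higher in SHEP (1.61) and did not pass in SKNAS (-0.36), SNAI2 was lower in SHEP (-0.70) and did not pass in SKNAS (-0.52), and GATA3, PHOX2A and PTPRC were lower in SKNAS (-1.88, -1.83 and -1.94). Their part in the members' changes was not tested.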

How the data were processed

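Polyadenylated RNA from SHEP and SKNAS cells was sequenced in 83 libraries, and the deposited values are TPM per gene, made by the authors with Salmon 1.3.0 (per the submitters' processing notes) on GRCh38. TPM keeps no library depth, so the depth is unknown and no counting interval could be given. Libraries were grouped by line and 4OHT or ethanol as labelled. Log2(TPM + 1) was fitted over all genes whose mean TPM reached 1 with limma 3.58.1 in R 4.3.3 (intensity-dependent prior), with Benjamini-Hochberg adjustment over all genes tested. A call needed an adjusted p of at most 0.05 and, for differences between groups, at least 0.15 in log2. MYC effects were fitted with time as a factor, trends as a line per 24 h, and rhythm as a 24 h cosine beside the line. The SHEP fits of the MYC effect, the trend, the difference of trends and the rhythm were tested on simulated data. The fits in SKNAS, between the lines and of CT28 against CT24 were not. The simulated noise was independent between libraries and held no effect of series. The simulation therefore cannot speak to false calls where libraries depend on each other. The SHEP series are replicate experiments, and libraries of the same series and time were paired only for the counts of pairs. Series was a term in the fit of CT28 against CT24 and in the replicate block, and the other main fits left it out. Over 14362 genes the difference between the series correlated at 0.489 between MYC-OFF and MYC-ON, and same-time deviations at -0.0215 to 0.292. The members and gene lists were chosen with earlier results of these data known. All members were described, and from the other lists up to 3 genes per direction with the largest SHEP change shared by the lines, up to 2 called in 1 line, and every gene called in opposite directions were named. Likeness named the 3 genes with the highest Pearson's r. Alternatives were another pseudocount, rescaling by the median of ratios, no filter, the replicate block, each series left out, series means, the library median as covariate, and leaving out CT24 or the SKNAS libraries of low median.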

Additional observations from a re-analysis of the deposited data

Results flagged for a closer look

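The MYC effect differed between the lines by a test of the difference itself (SKNAS minus SHEP, limma with Benjamini-Hochberg adjustment) for 6 of 9 members. Over all 14870 genes 51.5% passed. The difference was -0.42 for FKBP5, -0.60 for ERRFI1, -0.64 for KLF9, -0.58 for DUSP1, 0.66 for MT2A and -0.44 for CEBPD. In SHEP, the slope over time differed between MYC-ON and MYC-OFF for 4 of 9 members, against 39.8% of 14362 genes. It differed by 0.36 for KLF9, 0.78 for DUSP1, 0.61 for TSC22D3 and -0.36 for CEBPD in log2(TPM + 1) per 24 h. The SKNAS differences moved with the library medians, and those of TSC22D3 and KLF9 in slope did not pass without series 1. The cause was not tested.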

How the results depend on the processing

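TPM keeps no depth, SKNAS had 1 series per condition, and the libraries labelled CT24 weighed on trends and correlations. Of the alternative values for single members, 541 kept direction and side of the threshold, 64 lost and 14 gained a call and 29 changed sign. Of the alternative counts, 204 stayed within 1.5 times and 42 did not. The cause was not tested.

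The MYC effect in SHEP passed for 4 members with series means, where 3479 of 14362 genes were higher and 4148 lower. KLF9 was -0.047 to 0.14 without either series and ERRFI1 -0.0042 without CT24. In SKNAS FKBP5 was 0.20 after rescaling, and with the library median as covariate NR3C1 was 0.21, FKBP5 0.48 and ERRFI1 0.038. The difference between the lines passed for 3 members after rescaling, where 3751 of 14870 genes passed as positive and 3704 as negative. With the covariate it passed for 3 members, and for 3687 and 3294 genes. Without either series it passed for 3 to 4 members and 4604 to 4751 genes. There TSC22D3 was 0.053 with a pseudocount of 0.1, 0.25 after rescaling, -0.033 to 0.0032 without either series and 0.059 without the libraries of low median. NR3C1 was 0.10 after rescaling and 0.31 with the covariate, FKBP5 0.10 and SGK1 0.012 with the covariate.

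Between lines in MYC-OFF FKBP5 was 0.080 after rescaling, -0.25 to 0.046 without either series, 0.046 with the replicate block, 0.22 with the covariate and 0.31 without the libraries of low median, and in MYC-ON 0.45 with the covariate. The SHEP MYC-OFF trend passed for 1 to 2 members and 330 to 1821 genes without either series, and without CT24 NR3C1 was 0.023, TSC22D3 -0.11, ERRFI1 -0.016 and MT2A -0.14. In SHEP MYC-ON SGK1 was 0.00040 after rescaling, and without either series CEBPD was -0.0099 to 0.32 and MT2A -0.49 to 0.033. The SHEP difference of trends passed for 2 to 4 members and 4405 to 4595 genes without either series.

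In SKNAS MYC-OFF the trend passed for 6 genes after rescaling, 1 without the filter, 15 with the covariate, 4 without the libraries of low median and 1 between the last and first 4 times. In SKNAS MYC-ON it passed for 165, 1, 0 and 3 genes with the covariate, without the libraries of low median, between the last and first 4 times and without CT24. The SKNAS difference of trends passed for 126 genes with the covariate and 2 between the last and first 4 times. The SHEP MYC-OFF rhythm passed for 4 genes after rescaling, 4 without the filter, 13 with the replicate block, 12 from CT24 to CT68, 4 without CT24 and 0 to 0 without either series. That of SHEP MYC-ON passed for 2 without the filter, 2 with the block, 0 from CT24 to CT68 and 0 to 0 without either series.

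The comparison of CT28 with CT24, and its alternatives, were chosen after seeing the data. It passed for 2 members and 16 genes with a pseudocount of 0.1, 1 member and 6 genes without the filter, and 0 to 1 members and 0 to 2 genes without either series. It passed for 208 genes in SHEP alone and 181 with CT28 to CT40, where SGK1 was -0.20 and -0.035. The replicate block changed no other call of a member than that of SGK1 in the difference of trends, 0.17.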

Other observations

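Several other genes passed between CT24 and CT28 in the 6 series. ZFP36, an mRNA decay factor for cytokine transcripts, was higher by 1.23 (SE 0.11, adjusted p 0.00419 by limma with Benjamini-Hochberg adjustment), SNAI2, a transcription factor of the mesenchymal marker list, by 1.83 (SE 0.19, adjusted p 0.0121) and the cochaperone BAG3 by 0.82 (SE 0.10, adjusted p 0.0213). The 2 genes that were lower were IER3 at -1.05 (SE 0.10, adjusted p 0.00419) and GDF15 at -0.79 (SE 0.09, adjusted p 0.0130). These genes were chosen after their values were seen.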
